A study of Mus musculus with 47 samples.

Results

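The 9 genes described here, Mbp, Mog, Mag, Mobp, Cnp, Mal, Cldn11, Ugt8a and Opalin, encode proteins of the myelin sheath or an enzyme that makes its lipids. They were found by symbol and Ensembl identifier in the tables of expected counts of both sexes, which hold 55416 genes. All 9 passed the filter on low counts in both sexes, among 22197 genes tested in males and 20344 in females. RNA came from the brains of 3xTg mice, which are homozygous for human APPSwe, tauP301L and PS1M146V transgenes in every group, so each comparison lies within the AD model and none is with a wild-type mouse. The mice were given their diet for 9 months from 6 months of age. The diets were Control or a diet low in isoleucine (IleR), leucine (LeuR) or valine (ValR). There were 14 libraries from males (Control n = 4, IleR n = 3, LeuR n = 3, ValR n = 4) and 23 from females (n = 6, 5, 6 and 6 in the same order), each from a separately numbered mouse. Each library is named by its diet and its number in the labels, such as Control 4.

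In the brain and spinal cord, myelin is made by oligodendrocytes, which wrap axons in a stack of membrane that is rich in galactolipids and held compact by a small set of abundant proteins. Its genes are switched on together when precursors mature, under transcription factors that include SOX10 and MYRF, and they stay on in the adult. White matter tracts, the brainstem and the spinal cord hold more myelin than cortical grey matter, so the level of these RNAs in a piece of brain depends on which regions it holds.

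The promoters of 8 of the 9 genes were taken from those listed by RefSeq on GRCm38.p6, in 10 windows that each run from 250 bases before to 50 bases after a transcription start. The Mbp promoter is not shown. The windows were searched on both strands for ACAAAG and AACAAT, which are SOX family motifs, and for CTGGNAC, a MYRF motif, where N is any base. ACAAAG was found in 5 of the 10 windows, from 4 of the 8 genes, against 18.7% of all 32851 RefSeq windows. CTGGNAC was found in 5 of the 10 windows, from 4 of the 8 genes, against 19.3%, and AACAAT in none of the 10 against 3521 of the 32851 windows. A match of letters is a description and not a bound site. The stretches below are shown because these 4 promoters span the range of motif content, from none to 6 matches, with the matches of either strand in capitals, read 5′ to 3′ on the strand of the gene and cut at the annotated start. The Mobp stretch (chr9:120149492-120149706, plus strand) held 6 matches to ACAAAG, all in the reverse direction. The Mag stretch (chr7:30914923-30915172, minus strand) held 1 match to ACAAAG and 2 to CTGGNAC. The Opalin stretch (chr19:41077114-41077363, minus strand) held 1 match to ACAAAG, and the whole window held 1 more and a match to CTGGNAC after the start. The Ugt8a stretch (chr3:125938653-125938902, minus strand) held none, and its window had the highest GC content of the 10, 78.3% against a median of 52.7% over all windows.
Mobp: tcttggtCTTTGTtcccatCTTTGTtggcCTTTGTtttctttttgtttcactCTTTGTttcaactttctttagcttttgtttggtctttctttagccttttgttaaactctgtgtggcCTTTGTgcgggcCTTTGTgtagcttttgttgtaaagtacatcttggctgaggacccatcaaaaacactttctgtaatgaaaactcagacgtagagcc
Mag: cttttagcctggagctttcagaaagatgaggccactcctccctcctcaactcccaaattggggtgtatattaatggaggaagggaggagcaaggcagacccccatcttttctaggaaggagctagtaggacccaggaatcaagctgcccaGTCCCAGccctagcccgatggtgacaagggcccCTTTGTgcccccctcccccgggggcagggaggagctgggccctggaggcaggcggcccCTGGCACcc
Opalin: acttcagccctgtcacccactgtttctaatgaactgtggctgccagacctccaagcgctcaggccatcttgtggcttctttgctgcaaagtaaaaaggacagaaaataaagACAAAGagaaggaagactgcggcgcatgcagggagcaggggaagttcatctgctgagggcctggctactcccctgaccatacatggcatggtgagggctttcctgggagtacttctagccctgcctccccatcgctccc
Ugt8a: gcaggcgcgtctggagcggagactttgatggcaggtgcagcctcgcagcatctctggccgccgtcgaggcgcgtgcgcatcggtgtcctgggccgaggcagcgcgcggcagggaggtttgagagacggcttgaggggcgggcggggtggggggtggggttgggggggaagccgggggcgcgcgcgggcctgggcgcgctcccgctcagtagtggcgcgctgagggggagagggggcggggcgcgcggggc

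Male libraries held 12682700 to 25722300 counts and female libraries 10672600 to 21371000, and the lowest count of any of the 9 genes in a library was 136, for Opalin in a Control-fed female. A gene was tested if some diet group had no library at 0. The brain label was checked against marker genes: the 8 pan-neuronal markers summed to at least 3827 CPM (counts scaled to a common library total) in every male library and 4189 CPM in every female library, and the 5 liver markers to at most 3.35 and 9.21 CPM. The regional content of the libraries differed with diet in males. A hindbrain score sets 10 cerebellum genes and 10 genes of the brainstem and spinal cord against 10 forebrain genes, as a difference of mean log2 CPM. It lay between -7.20 and -4.20 in the 4 male Control libraries and between 1.54 and 6.29 in 9 of the 10 restricted males, while LeuR 21 was at -3.33. The same score ran from -7.21 to 5.54 in females, with libraries above 0 in Control, LeuR and ValR. LeuR 21 was thus nearer to the Control males than to the other restricted males on this score. The male counts of called genes, for the 9 genes and for each gene list, are given with and without LeuR 21. Other male results include LeuR 21 unless stated. Because the scores of Control-fed and restricted males did not overlap, diet and the regions held by a library cannot be told apart in males, and in bulk RNA more oligodendrocytes and more RNA per oligodendrocyte cannot be told apart either.

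Per kilobase of annotated exon, the order of the 9 genes in Control-fed males ran from Mbp, with 411 ± 117 CPM per kilobase (SD, n = 4), through Mobp (174 ± 52.4), Cnp (98.7 ± 28.1), Cldn11 (84.0 ± 23.0), Mal (79.0 ± 20.8), Mag (54.8 ± 18.3), Mog (33.1 ± 12.3) and Ugt8a (16.0 ± 4.41) to Opalin (6.23 ± 1.54). Of these neighbours, Mbp and Mobp, and Ugt8a and Opalin, did not overlap between libraries, and every other pair of neighbours did. In Control-fed females the order was the same except that Mal (60.3 ± 17.8, n = 6) stood before Cldn11 (58.9 ± 15.5), and only Mbp and Mobp did not overlap. The exon lengths are sums over all annotated transcripts, and Mbp includes exons of long Golli transcripts, so its level per kilobase is a low estimate.

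No gene of the 9 passed the test against Control in either sex. In restricted males the fitted level of most of them was above Control, with a median log2 fold change of 0.60, 0.63 and 0.53 under IleR, LeuR and ValR. The median of all tested genes was 0.04, 0.05 and 0.03. With edgeR (quasi-likelihood F test, p adjusted by Benjamini-Hochberg over all tested genes), 0 of 9 were called for each diet, while 15.3%, 10.1% and 23.5% of all tested genes were called. At an unadjusted p under 0.05 the counts were 4, 5 and 4, all higher, against 29.6%, 27% and 35.2% of all tested genes in either direction. limma voom called 0 for each diet, where it called 16.7%, 10.9% and 23.3% of all genes. DESeq2 called 2 for IleR (Mbp and Ugt8a), 3 for LeuR (Mbp, Mag and Ugt8a) and 1 for ValR (Mbp), against 22.4%, 19.3% and 28.6% of the genes it adjusted. With edgeR's own filter on low counts (filterByExpr) 0, 0 and 1 were called, against 20.7%, 14.4% and 30.6% of all genes. With only the groups compared in the fit, 2, 0 and 2 were called, against 15.3%, 0% and 25.6%. Of these adjusted counts, the called share of the 9 was above that of all genes for LeuR by DESeq2 and for IleR with only the groups compared, and below it elsewhere, except that neither was above 0 for LeuR with only the groups compared.

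**Figure D1:**
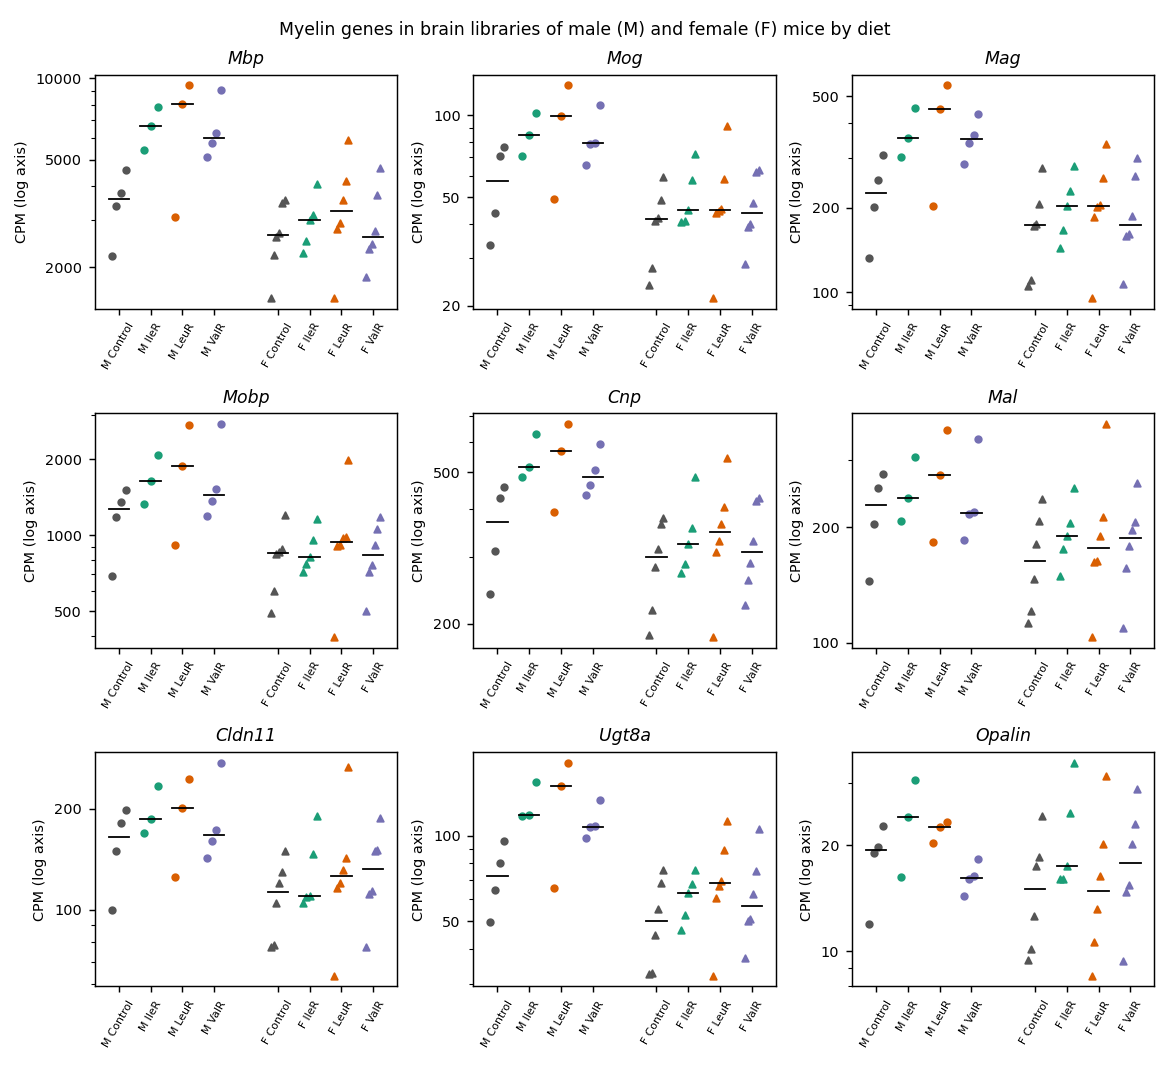
CPM after TMM normalization (log axis) of the 9 genes in each library, with males as circles and females as triangles, colours and columns for diets and lines for medians. Male and female libraries were normalized separately. The male Control points of Mbp and Ugt8a lie below all restricted males but LeuR 21, which lies among them, and the female groups overlap with Control in every panel.

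Mbp, the basic protein that holds the cytoplasmic faces of compact myelin together (chromosome 18, 82475146 to 82585637, plus strand, GRCm38), was the most abundant. Its level in Control-fed males was 2196 CPM in Control 1, 3373 in Control 3, 3759 in Control 4 and 4582 in Control 5. It was 7871, 6641 and 5431 CPM in IleR 13, 14 and 17, and 5101, 5747, 6264 and 9038 CPM in ValR 12, 10, 7 and 9, so that every IleR and ValR male was above every Control male. The LeuR males had 9446 CPM in LeuR 19, 8064 in LeuR 20 and 3056 in LeuR 21, of which the last lay inside the Control range. The log2 fold change was 0.93 for IleR (SE 0.34, edgeR adjusted p = 0.0825), 0.98 for LeuR (SE 0.34, adjusted p = 0.0837) and 0.91 for ValR (SE 0.32, adjusted p = 0.0552).

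In females Mbp had a lowest, median and highest level of 1536, 2629 and 3546 CPM in the 6 Control libraries, 1534, 3224 and 5891 CPM in LeuR and 1836, 2576 and 4643 CPM in ValR. The 5 IleR libraries had 2254, 2500, 2999, 3128 and 4058 CPM. All female groups overlapped. The female log2 fold changes of Mbp were 0.16, 0.38 and 0.14 under IleR, LeuR and ValR, with 95% intervals of -0.43 to 0.75, -0.18 to 0.94 and -0.42 to 0.70.

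Mobp, another small basic protein of compact myelin (chromosome 9, 120149707 to 120181484, plus strand), had 692, 1187, 1362 and 1520 CPM in male Control 1, 3, 4 and 5. The IleR males had 1334, 1650 and 2084 CPM, the LeuR males 912.6, 1884 and 2732 CPM, and the ValR males 1199, 1367, 1527 and 2764 CPM, and each restricted group overlapped with Control. The log2 fold changes of Mobp were 0.51, 0.63 and 0.53 for IleR, LeuR and ValR, with edgeR adjusted p = 0.400, 0.296 and 0.306. Leaving out 1 library moved the LeuR value between 0.23 and 0.98, the highest without LeuR 21. The Mobp exons share 79 bases with Gm38642 on the same strand, which had at most 22 counts in a library.

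Mag and Mog are surface proteins. Mag, an adhesion molecule of the innermost wrap that faces the axon (chromosome 7, 30899176 to 30914873, minus strand), had 132.6, 201.7, 250.4 and 307.9 CPM in male Control 1, 3, 4 and 5. It had 303.4, 355.8 and 453.8 CPM in the IleR males, 202.6, 451.1 and 547.1 CPM in the LeuR males, and 287.2, 339.9, 362.1 and 431.1 CPM in the ValR males. Each diet overlapped with Control only through its lowest library, which was IleR 17, LeuR 21 or ValR 12. The log2 fold changes of Mag were 0.73, 0.84 and 0.67 (edgeR adjusted p = 0.132, 0.0994 and 0.116).

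Mog, an immunoglobulin-fold protein of the outermost myelin surface (chromosome 17, 37010743 to 37023398, minus strand), had 33.6, 43.9, 71.15 and 76.8 CPM in the same Control males. It had 71.0, 84.7 and 101.7 CPM in IleR males, 49.2, 98.95 and 128.9 CPM in LeuR males and 65.8, 78.65, 79.4 and 109.2 CPM in ValR males, and all 3 groups overlapped with Control. Its log2 fold changes were 0.61, 0.71 and 0.56 (edgeR adjusted p = 0.229, 0.168 and 0.1999).

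Cnp and Ugt8a are enzymes. Cnp encodes CNPase, an abundant protein of non-compact myelin that keeps its cytoplasmic channels open (chromosome 11, 100574904 to 100591729, plus strand). Its level was 239.2, 310.4, 428.5 and 457.9 CPM in male Control 1, 3, 4 and 5, and 485.0, 514.8 and 628.2 CPM in the IleR males, which did not overlap with Control. The LeuR males (391.7, 569.0 and 667.8 CPM) and the ValR males (434.9, 463.6, 505.9 and 590.5 CPM) overlapped through LeuR 21 and ValR 12. The log2 fold changes of Cnp were 0.60, 0.60 and 0.47, with SE of 0.22, 0.22 and 0.21 and edgeR adjusted p = 0.0882, 0.102 and 0.119. Its exons overlap 154 bases of Dnajc7 on the opposite strand, 4.23% of their length, where Dnajc7 as a whole had up to 3959 counts in a male and 3294 in a female library and the lowest count of Cnp was 2830, and whether the counting used strand is not given in the sources used here.

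Ugt8a makes galactosylceramide, the main glycolipid of myelin (chromosome 3, 125865271 to 125938619, minus strand). It had 49.9, 64.4, 80.4 and 96.2 CPM in male Control 1, 3, 4 and 5, 117.3, 118.5 and 154.9 CPM in IleR males and 98.2, 107.3, 108.0 and 133.7 CPM in ValR males, so IleR and ValR lay above every Control male. The LeuR males had 180.4 CPM in LeuR 19, 150.0 in LeuR 20 and 65.5 in LeuR 21, the last within the Control range. The log2 fold change of Ugt8a was 0.84 for IleR (SE 0.28, edgeR adjusted p = 0.0616), 0.86 for LeuR (SE 0.28, adjusted p = 0.0697) and 0.62 for ValR (SE 0.26, adjusted p = 0.111).

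Mal and Cldn11 are membrane-spanning proteins. Mal, a proteolipid of lipid rafts (chromosome 2, 127633226 to 127656695, minus strand), had 145.3 to 275.1 CPM in Control-fed males, 208.3 to 305.7 in IleR, 183.0 to 358.8 in LeuR and 185.8 to 340.8 in ValR. Cldn11, the claudin of the tight junction strands between myelin layers (chromosome 3, 31149920 to 31164324, plus strand), had 100.1 to 197.8, 169.2 to 233.2, 125.3 to 246.1 and 142.4 to 274.2 CPM in the same order. For both genes every restricted group overlapped with Control. The log2 fold changes of Mal were 0.19, 0.31 and 0.13, and those of Cldn11 were 0.32, 0.28 and 0.26, with edgeR adjusted p between 0.484 and 0.760.

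Opalin, a membrane protein of paranodal and inner loops that is found in the central but not the peripheral nervous system (chromosome 19, 41061710 to 41077113, minus strand), had the lowest mean level of the 9. It had 12.0, 19.1, 19.8 and 22.6 CPM in male Control 1, 3, 4 and 5, 16.2, 24.0 and 30.7 CPM in the IleR males and 14.4, 16.0, 16.3 and 18.3 CPM in the ValR males. The LeuR males had 20.2, 22.6 and 23.2 CPM, and here LeuR 21, with 22.6 CPM, was not the lowest. All groups overlapped with Control. The log2 fold changes of Opalin were 0.36, 0.26 and -0.18 (edgeR adjusted p = 0.285, 0.473 and 0.585), and it was the only gene of the 9 with a fitted value below 0 against Control in either sex.

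**Figure D2:**
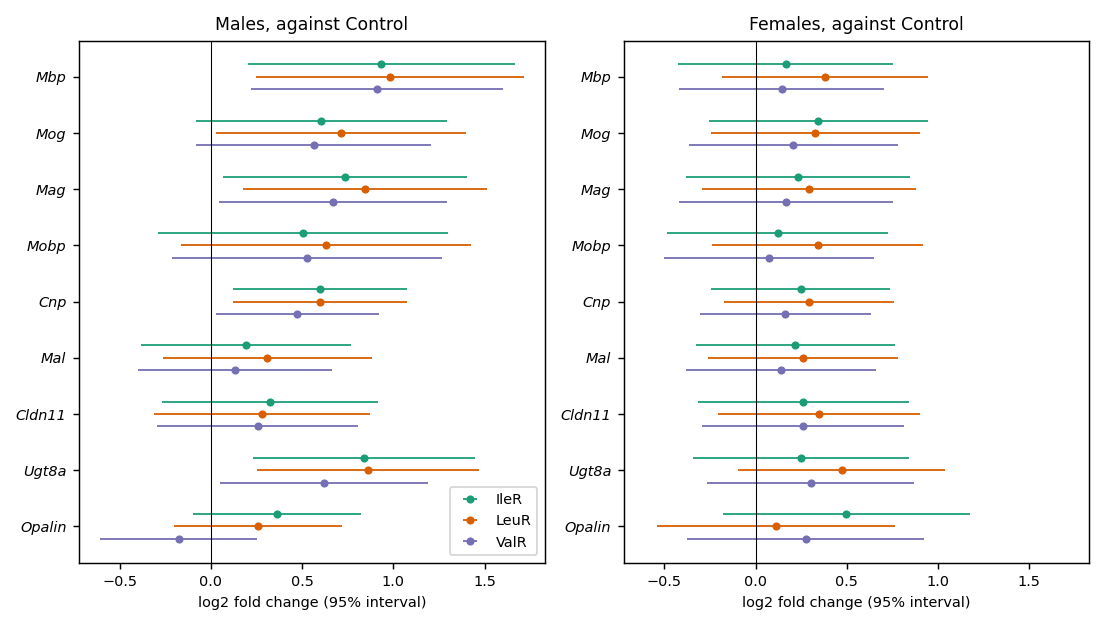
Log2 fold change of each gene against Control with its 95% interval from the edgeR fit, for IleR, LeuR and ValR in males (left) and females (right). In males the points of Mbp, Mag and Ugt8a lie farthest to the right and ValR Opalin is at -0.18, while every female interval includes 0.

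The libraries of 3 of the 9 genes did not overlap for IleR against Control males (Mbp, Cnp and Ugt8a, all higher, 14.8% of tested genes), 0 for LeuR (8.21%) and 2 for ValR (Mbp and Ugt8a, 12.7%). The fitted value was above 0 in all 9 genes under IleR, all 9 under LeuR and 8 of 9 under ValR, where 53.7%, 54.7% and 52.5% of all genes were above 0. Because the genes move together from library to library, these counts are not 9 separate observations.

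Without LeuR 21, 5 of the 9 genes were called for LeuR (Mbp, Mog, Mag, Cnp and Ugt8a), all higher. Of all tested genes, 7.09% were called higher and 14.7% in either direction. The log2 fold changes of the 5 ran from 0.80 for Cnp to 1.35 for Mbp, with edgeR adjusted p from 0.00453 for Ugt8a to 0.0310 for Mog. Mobp, Mal and Cldn11 were not called, with LeuR log2 fold changes of 0.98, 0.55 and 0.53. The median of the 9 in this setting was 0.60, 0.98 and 0.54 for IleR, LeuR and ValR. LeuR 19 and LeuR 20 lay above every Control male for 7 of the 9, all but Mal and Opalin, against 18.1% of tested genes. The same omission gave 3 called genes for IleR (Mbp, Mag and Ugt8a) and 3 for ValR (Mbp, Mag and Ugt8a), all higher. Of all tested genes, 8.38% and 13.3% were called higher and 18.2% and 26.4% in either direction. Whether the place of LeuR 21 follows from the regions it holds was not tested.

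With the hindbrain score as a covariate, the fitted log2 fold change was below 0 for 8 of 9 genes under IleR and LeuR and for all 9 under ValR, Opalin being above 0 for IleR (0.50) and LeuR (0.36). That of Mbp became -0.68 for IleR (SE 0.65), -0.34 for LeuR (SE 0.53) and -1.05 for ValR (SE 0.76), and none of the 9 passed the test in this fit, in which 0.0135%, 0.0586% and 0% of all genes were called for IleR, LeuR and ValR. The direction of the male differences therefore depended on whether the score entered the model, in a design in which score and diet are nearly collinear. This fit was run only with LeuR 21, at a score of -3.33, included. How far the turn in direction rests on that library was not tested.

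In females all 9 genes had a fitted value above 0 for each diet, where 46.7%, 50.6% and 47.4% of all genes did under IleR, LeuR and ValR. The medians over the 9 were 0.25, 0.33 and 0.17, against -0.01, 0.00 and -0.01 over all genes, and 0 were called by edgeR, DESeq2 or limma voom. No gene of the 20344 tested in females was called by edgeR for any diet (0%), while DESeq2 called 0.0393%, 0.00492% and 0% of all genes and limma voom 0.00492%, 0% and 0%. By edgeR, 0 of the 9 had an unadjusted p under 0.05, against 2.84%, 4.03% and 3.82% of all genes. The largest female value was 0.50 for Opalin in IleR (95% interval -0.18 to 1.17), followed by 0.47 for Ugt8a in LeuR (95% interval -0.10 to 1.04). The female libraries of each diet overlapped with Control for all 9 genes, and 0.108%, 0.133% and 0.0737% of all tested genes lay wholly above it. Ugt8a had a lowest, median and highest level of 32.6, 49.97 and 75.99 CPM in Control-fed females and 32.1, 67.9 and 112.6 CPM in LeuR. Opalin had 9.43, 14.998 and 24.1 CPM in Control and 16.0, 17.5 and 34.2 CPM in IleR. Within a female group the highest library was from 1.62 to 5.05 times the lowest, the widest span being that of Mobp in LeuR (395.7 to 1998 CPM). On the linear scale the 95% interval of Mbp ran from 0.745 to 1.69 times Control for IleR, from 0.880 to 1.92 times for LeuR and from 0.747 to 1.63 times for ValR, so the female data do not show that these levels stayed the same.

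No diet by sex interaction was called for the 9 genes by edgeR, DESeq2 or limma voom, where edgeR called 0.0979%, 0.00445% and 4.25% of 22465 tested genes under IleR, LeuR and ValR, and 0 of the 9 had an unadjusted p under 0.05 (19.1%, 13% and 26% of all genes). DESeq2 called 5.9%, 2.12% and 13.1% of all genes and limma voom 0%, 0.00445% and 0.129%. The interaction of Mbp, male change minus female change, was 0.77 for IleR (SE 0.47, edgeR adjusted p = 0.373), 0.62 for LeuR (SE 0.46, adjusted p = 0.609) and 0.75 for ValR (SE 0.44, adjusted p = 0.288). That of Opalin was -0.13, 0.16 and -0.47, with SE between 0.44 and 0.47.

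Among restricted diets, 0 of the 9 genes differed in males or females by edgeR. In males edgeR called 0% of tested genes between ValR and IleR, 2.75% between ValR and LeuR and 0% between IleR and LeuR. In females it called 0% in each of the 3 pairs. At an unadjusted p under 0.05 the shares of all genes were 2.83%, 23.9% and 11.3% in males and 4.16%, 4.98% and 6.14% in females. The ValR minus IleR value of Opalin was -0.54 (95% interval -0.998 to -0.0786, unadjusted p = 0.0250, edgeR adjusted p = 1), and it was the only one of the 9 with an unadjusted p under 0.05 in any comparison of 2 restricted diets. DESeq2 and limma voom, which were run on the male pairs, also called none of the 9, where DESeq2 called 0.0316%, 14.6% and 0.614% of all genes for ValR against IleR, ValR against LeuR and IleR against LeuR, and limma voom 0%, 2.54% and 0%. The Opalin libraries of ValR lay below those of LeuR without overlap (8.47% of all genes did), with a log2 difference of -0.43 (95% interval -0.90 to 0.03). For Mbp the ValR minus IleR value was -0.02 with a 95% interval of -0.76 to 0.72, an interval about as wide as those against Control.

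Within a diet group the libraries ranked alike from gene to gene. Control 1 was the lowest Control male for 9 of 9 genes, IleR 13 the highest and IleR 17 the lowest IleR male for 9 of 9, and LeuR 21 the lowest LeuR male for 8 of 9, Opalin being the exception. Among females, LeuR 44 was the highest LeuR library for 9 of 9 genes and LeuR 47 the lowest for 8 of 9. After subtraction of diet group means, the Pearson r between 2 of the other 8 genes had a median of 0.94 over 28 pairs in the 14 male libraries (0.74 to 0.99) and 0.95 in the 23 female libraries (0.75 to 0.98). The 8 pairs that include Opalin had a median of 0.52 in males (0.43 to 0.61) and 0.57 in females (0.42 to 0.85). In females Opalin was nearest to Mal (0.85) and Cldn11 (0.77), and farthest from Mbp (0.42) and Ugt8a (0.43). These values are over libraries that share depth and region content, and are given as a description with no test.

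**Figure D3:**
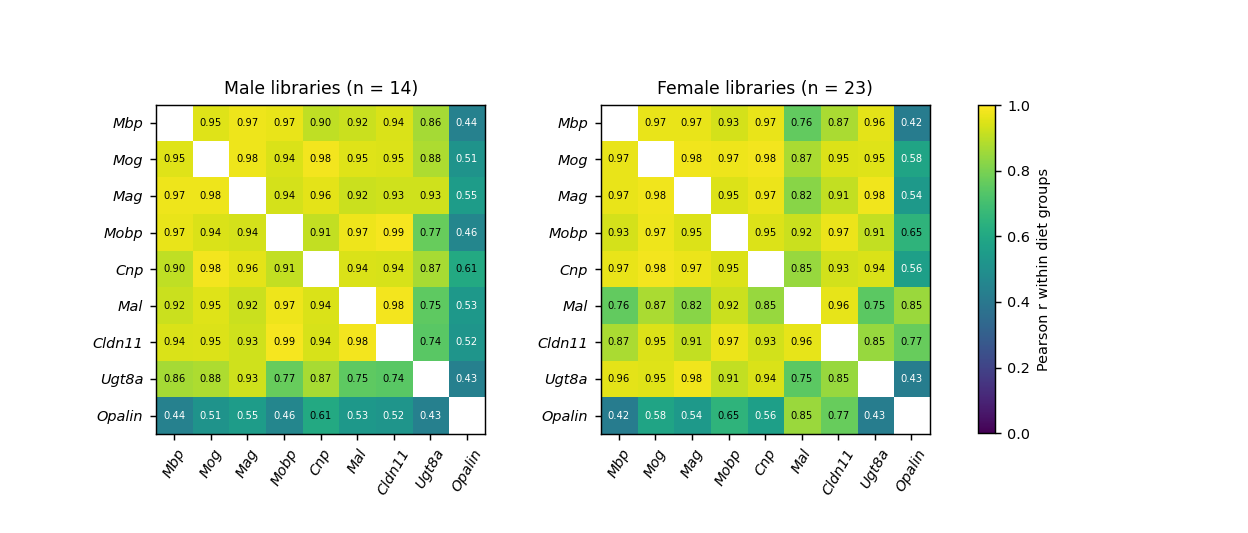
Pearson r of log2 CPM between each pair of genes after the mean of each diet group was subtracted, in male (left) and female (right) libraries, with the value in each cell and colour from 0 to 1. The 8 Opalin values of males, from 0.43 to 0.61, lie below those of all other pairs, which start at 0.74, while in females they run from 0.42 to 0.85 and overlap with the others, which start at 0.75.

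The log2 ratio of Opalin to Mbp lay between -7.65 and -7.46 in the 4 Control males. In 9 of the 10 restricted males it was between -9.13 and -8.00, below every Control male, and in LeuR 21 it was -7.07, above every Control male. In females it ran from -8.39 to -6.92 in Control and from -8.91 to -6.85 in the restricted diets. The lowest female value, in LeuR 45, came with the highest female hindbrain score.

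The relation of each gene to the hindbrain score was measured over the 23 female libraries and, without the Control males, over the 10 restricted males. The diets of each set were pooled, and among restricted males the score ran from 5.02 to 6.29 in ValR, from 2.27 to 4.66 in IleR and from -3.33 to 4.50 in LeuR. This gives 18 relations adjusted within each set of 9. In females Opalin was lower where the score was higher, with Pearson r = -0.63 (permutation p = 0.00104, adjusted p = 0.00936) and Spearman rho = -0.56 (permutation p = 0.00644, adjusted p = 0.0580). Without LeuR 45 and ValR 36, the libraries farthest from the median score, r was -0.57 and its adjusted permutation p was 0.0617, so the call rests on those libraries while the value moved little. With diet means removed from level and score, and libraries permuted within diets, r of Opalin was -0.66 (adjusted permutation p = 0.0257), an alternative chosen after seeing the data. For Mbp in females r was 0.34 (adjusted permutation p = 0.359), and 0.12 without the same libraries. The other 7 genes had r between -0.30 for Mal and 0.32 for Ugt8a, none with an adjusted permutation p under 0.05.

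In the 10 restricted males Opalin again had a negative r, -0.53 (permutation p = 0.117, adjusted p = 0.363), and the other 8 genes had r between 0.22 and 0.55, of which none passed (adjusted permutation p between 0.363 and 0.584). With diet means removed r was -0.26 for Opalin and from 0.53 to 0.76 for the other 8 (adjusted permutation p = 0.317 for each of the 9). Without LeuR 20 and LeuR 21, and with the diets pooled, all 8 turned negative, from -0.22 for Mobp to -0.58 for Ugt8a, so the positive values rest on those libraries. Opalin was then at -0.72 (adjusted permutation p = 0.406).

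**Figure D4:**
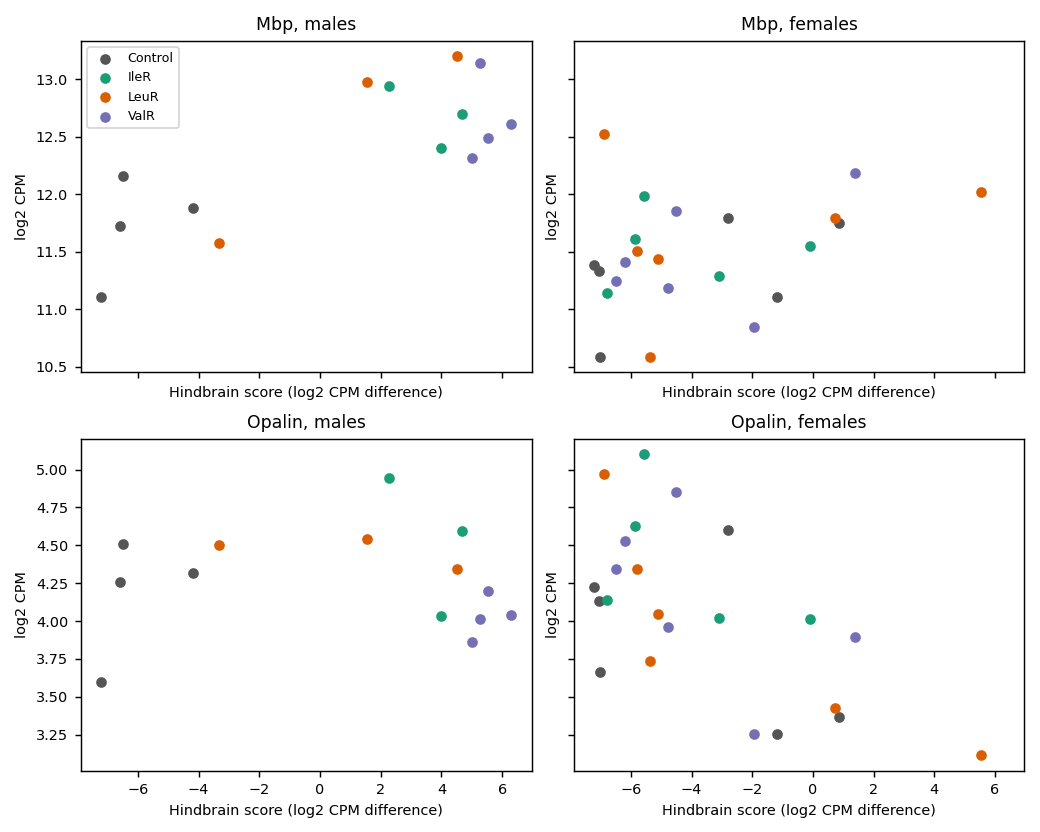
Log2 CPM of Mbp (top) and Opalin (bottom) against the hindbrain score, in males (left) and females (right), with 1 point per library coloured by diet. Male Control libraries all lie below -4 on the score, while among females Opalin is at its lowest in LeuR 45, which has the highest score.

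Among the genes outside the list whose log2 CPM was most like the mean of the 9, over 37 libraries and 13634 genes after subtraction of the mean of each sex and diet group, were Myrf (Pearson r = 0.98), Plxnb3 (0.98), Prr18 (0.97) and Myo1d (0.97). Myrf is the transcription factor of myelinating oligodendrocytes. It had 96.6 ± 26.8 CPM in Control males (SD, n = 4), 140.6 ± 29.1 in IleR (n = 3), 138.6 ± 49.6 in LeuR (n = 3) and 138.8 ± 32.9 in ValR (n = 4), with log2 fold changes of 0.54, 0.52 and 0.52 (edgeR adjusted p = 0.198, 0.232 and 0.154). None of these 4 was called by edgeR in males.

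Genes of the wider oligodendrocyte lineage were read from 4 further lists. Of 20 other myelin and mature oligodendrocyte genes, 4, 0 and 5 rose in IleR-, LeuR- and ValR-fed males and none fell, where 6.63%, 3.81% and 11.1% of all genes rose and 8.68%, 6.33% and 12.4% fell. The median of the list was 0.63, 0.52 and 0.53. For ValR those with the largest change were Hapln2 (log2 fold change 1.06), which organizes the matrix of nodes, Sept4 (0.97), a septin, and Cntn2 (0.96), a juxtaparanodal adhesion molecule that cerebellar granule neurons also make, with edgeR adjusted p = 0.0496, 0.00204 and 0.000751. Cntn2 was at 280.1 ± 49.0 CPM in Control males and 545.3 ± 46.2 in ValR. Without LeuR 21 the list had 11, 15 and 11 genes that rose, in a fit in which 8.38%, 7.09% and 13.3% of all genes rose and 9.8%, 7.66% and 13.2% fell.

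Of 10 myelin lipid metabolism genes, 0, 0 and 1 rose for IleR, LeuR and ValR, the 1 being Cers2, the ceramide synthase of very long acyl chains, with a log2 fold change of 0.57 (edgeR adjusted p = 0.0486), against 6.63%, 3.81% and 11.1% of all genes. Without LeuR 21 the counts were 6, 8 and 6, against 8.38%, 7.09% and 13.3% of all genes, and none fell in either setting.

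Of 10 oligodendrocyte lineage transcription factors, 4, 2 and 4 rose under the 3 diets, against 6.63%, 3.81% and 11.1% of all genes, and none fell. St18, a zinc finger factor, had the largest change, from 11.7 ± 2.95 CPM in Control males (n = 4) to 62.6 ± 17.1 in IleR (n = 3) and 76.3 ± 25.3 in ValR (n = 4), a log2 fold change of 2.41 and 2.70 (edgeR adjusted p = 0.00160 and 0.000283). In LeuR males St18 had 28.3 ± 17.0 CPM (n = 3), with a log2 fold change of 1.26 that did not pass (edgeR adjusted p = 0.0514). Nkx2-2 and Nkx6-2, homeobox factors that are also used in the patterning of the ventral neural tube, rose for all 3 diets, with log2 fold changes of 0.94 and 0.75 for ValR. Myrf (0.54, 0.52 and 0.52) and Sox10 (0.32, 0.54 and 0.20), which drive myelin genes, did not pass for any diet. Without LeuR 21 the counts were 4, 6 and 4, against 8.38%, 7.09% and 13.3% of all genes.

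Of 12 genes of precursors and newly formed oligodendrocytes, 2, 1 and 2 rose under the 3 diets, against 6.63%, 3.81% and 11.1% of all genes, and 2 fell for ValR (12.4% of all genes did), Gpr17 and, named after its values were seen, Pdgfra, the growth factor receptor of precursors. Gpr17, a receptor of newly formed oligodendrocytes, fell from 41.5 ± 4.67 CPM in Control males to 17.8 ± 5.71 in ValR (log2 fold change -1.22, SE 0.25, edgeR adjusted p = 0.00306). Its libraries did not overlap between those groups. Gpr17 was also the only gene of these 4 lists with a called interaction, at -1.48 for ValR (SE 0.34, edgeR adjusted p = 0.0172). Of all genes, 0.0979%, 0.00445% and 4.25% had a called interaction for IleR, LeuR and ValR. In females it had 31.3 ± 6.33 CPM in Control and 36.7 ± 7.06 in ValR. Tmem163, a zinc transporter, and Vcan, a proteoglycan of precursors, rose for ValR by 1.19 and 0.92 on the log2 scale (edgeR adjusted p = 0.0137 and 0.000204). Without LeuR 21 the counts were 4, 4 and 4 that rose, against 8.38%, 7.09% and 13.3% of all genes, and 0, 0 and 3 that fell, against 9.8%, 7.66% and 13.2%.

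**Figure D5:**
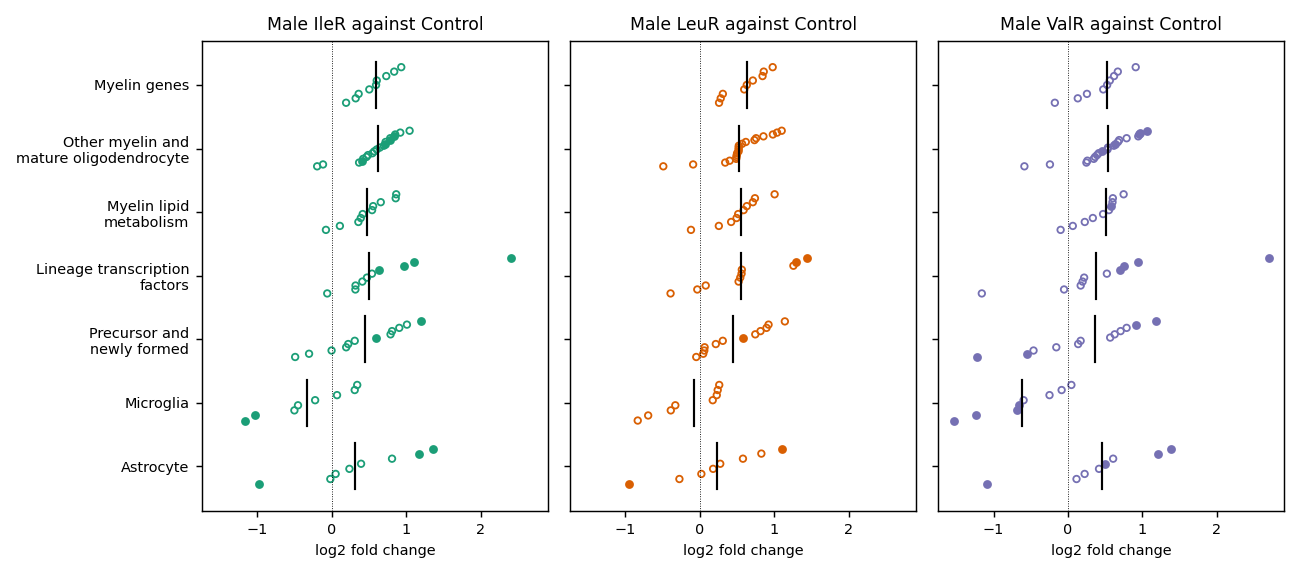
Log2 fold change of each gene of 7 lists against Control in males, for IleR, LeuR and ValR, with filled points for genes called by edgeR, open points for the others and a black line at the median. The medians of the 5 oligodendrocyte lists lie between 0.37 and 0.63, and the microglia medians lie below 0.

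Lists of other cells and regions moved in the same male comparisons, and their part in the values above was not tested. Their counts stand against 6.63%, 3.81% and 11.1% of all genes that rose and 8.68%, 6.33% and 12.4% that fell for IleR, LeuR and ValR, and those without LeuR 21 against 8.38%, 7.09% and 13.3% that rose and 9.8%, 7.66% and 13.2% that fell. Of 10 cerebellum genes, 10, 7 and 10 rose for IleR, LeuR and ValR, with summed levels of 85.5 to 142.9 CPM in Control males and 273.3 to 5318 CPM in restricted males. Of 10 brainstem and spinal cord genes 6, 7 and 8 rose, and of 10 forebrain genes 9, 4 and 10 fell. The brainstem and spinal cord genes summed to 0.73 to 10.2 CPM in Control males and 7.45 to 652.5 CPM in restricted males. For the forebrain genes the sums were 671.3 to 2043 CPM in Control males and 17.2 to 325.7 CPM in restricted males. Without LeuR 21, 10, 10 and 10 cerebellum genes and 7, 10 and 8 brainstem and spinal cord genes rose, and 10, 5 and 10 forebrain genes fell. Of 8 microglia genes 2, 0 and 4 fell, P2ry12 (-1.53), Tmem119 (-1.24) and Cx3cr1 (-0.68) having the largest log2 changes for ValR, with a summed level of 365.6 to 428.6 CPM in Control and 244.0 to 454.1 CPM in restricted males. Without LeuR 21, 2, 1 and 4 microglia genes fell. Of 8 peripheral myelin genes, of which 7 were tested, 0, 0 and 1 rose and 1, Drp2, fell for each diet, and without LeuR 21 the counts were 1, 1 and 2 that rose and 1 that fell. The mean log2 CPM of this list was 2.07 in male ValR 9, against 0.20 to 0.96 in the other 13 males, and 2.98 in female ValR 36, against -0.19 to 0.81 in the other 22 females. Its summed level was 141.5 CPM in ValR 9, within the range of the other males (92.1 to 153.9 CPM), and 216.1 CPM in ValR 36, above the other females (76.6 to 139.3 CPM). ValR 9 was the highest ValR male for Mbp, whose log2 fold change for ValR was 0.91 with it and 0.71 without it, and that of Mbp in ValR females was 0.14 with ValR 36 and -0.0347 without it. The 8 astrocyte genes had 2, 1 and 3 that rose and 1 that fell for each diet, with log2 changes for ValR of 1.38 for S100b, 1.21 for Aqp4 and -1.08 for Slc1a2. Without LeuR 21, 2, 2 and 3 astrocyte genes rose and 1, 0 and 1 fell. Beside these, 1 pan-neuronal gene of 8 rose and 1 fell for each diet (for ValR Stmn2, 0.73, and Syt1, -1.83), and without LeuR 21, 1, 3 and 2 rose and 1 fell for each diet. None of the 8 choroid plexus genes and of the 3 liver genes tested was called by edgeR in either fit.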

How the data were processed

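RNA-seq was made from brains of 3xTg mice. The labels list 47 libraries, of which 37 were analysed here, and 10 of the 24 male libraries were not. The labels differ on whether polyA or total RNA kits were used, and their extraction text names liver tissue. The authors aligned reads to GRCm38, counted them per Ensembl gene and deposited expected counts. Their test of expression left out libraries that stood apart in a principal component analysis, and whether these are among the 10 is not stated. The group sizes that the paper gives for its male transcriptome figure exceed the 3 IleR and 3 LeuR males analysed here. The submitters' processing notes name R 3.4.3, edgeR, limma and GRCm38. The aligner, and whether counting used strand, are not given in the sources used here. The tables of the authors' own comparisons (log2 fold changes, p-values and adjusted p-values) were not used.

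Expected counts were rounded, kept where every library of a diet group had at least 1 count, scaled by TMM and tested within each sex, over all 4 diets in 1 model, with edgeR 4.0.16 (glmQLFit, glmQLFTest, R 4.3.3), without covariates. Both sexes entered 1 model for the diet by sex interaction. P-values were adjusted by Benjamini-Hochberg over all genes tested, with a threshold of 0.05. Levels are CPM, the counts of a library scaled to a common total, and log2 CPM used a prior count of 2. Relations with the hindbrain score used two-sided permutation tests (100000 resamples) in scipy 1.17.1 under Python 3.11.15 with numpy 2.4.6 and pandas 2.3.3, and figures used matplotlib 3.10.9. Alternatives were DESeq2 1.42.0, limma voom 3.58.1, other filters and size factors, unrounded counts, only the groups compared, the hindbrain score as a covariate and leaving out each library. The edgeR and permutation steps were tested on simulated data.

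The 9 genes and all lists were chosen with earlier results of these data known. All 9 are named. Of each other list, up to 3 called genes with the largest absolute change for ValR in males are named. Genes of the regional lists are instead given as counts and sums, because their levels were low in Control or in restricted males. The genes most like the 9 had the highest r with their mean among genes whose mean log2 CPM was 1 or more in each sex. Other names are given for their role. Some genes that this rule names are not reported here. Libraries come from separately numbered mice, and all 73 pairs of libraries within a group differed by more than sampling noise (chi-square per degree of freedom of at least 8.43). Total counts ran from 10672600 to 25722300.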

Additional observations from a re-analysis of the deposited data

Results flagged for a closer look

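Mobp in the female library LeuR 44 was at 1998 CPM, where the nearest of the other 5 LeuR females had 985 CPM. The gap was 0.632 of the group's range, against a critical value of 0.625 for 6 libraries. LeuR 44 was the highest LeuR female for all 9 genes. Of 54 groups of libraries tested in this way 1 was marked, and chance marks about 1 in 20.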

How the results depend on the processing

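The number of the 9 genes called against Control, 0 for each diet in males, was 2, 3 and 1 for IleR, LeuR and ValR with DESeq2, 1 for ValR with filterByExpr, and 2 for IleR and 2 for ValR with only the groups compared. Leaving out 1 library gave 0 to 3 for IleR, 0 to 5 for LeuR and 0 to 3 for ValR, in fits that called 8.07% to 19.5%, 2.41% to 17.7% and 17.2% to 26.4% of all genes. The highest count came each time without LeuR 21, and without Control 5 (11.7% and 18.9% of all genes called) or LeuR 19 (15.6% and 23.6%) it was 1 for IleR and 1 for ValR. It was 0 with limma voom, no filter (9.61%, 6.57% and 15.1% of all genes called for IleR, LeuR and ValR), other size factors (15.5%, 10.2% and 23.4%) and unrounded counts (15.3%, 10.2% and 23.5%). The counts for females, for the interaction and between restricted males were 0 in every alternative run, where 0% to 0.0393%, 0% to 13.1% and 0% to 14.6% of all genes were called. The cause of these changes was not tested.

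With the hindbrain score as a covariate the male log2 fold changes turned negative, for IleR to -0.68 (Mbp), -0.88 (Mog), -0.69 (Mag), -1.02 (Mobp), -0.25 (Cnp), -0.82 (Mal), -0.66 (Cldn11) and -0.57 (Ugt8a). For LeuR they were -0.34, -0.48, -0.31, -0.61, -0.050, -0.48, -0.49 and -0.28 in the same order, and for ValR -1.05, -1.25, -1.07, -1.33, -0.55, -1.10, -0.94 and -1.09.

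Leaving out 1 library turned 5 of 54 differences against Control, 9 of 27 interactions and 24 of 27 differences between restricted males, none called. Mal in ValR males ran from -0.0837 to 0.26, negative without Control 1 or ValR 9. In LeuR females Mal ran from -0.0095 to 0.40 and Opalin from -0.16 to 0.29, negative without LeuR 44. In ValR females Mbp ran from -0.0347 to 0.25, negative without ValR 36, and Mobp from -0.0388 to 0.22, negative without Control 26 or ValR 32. Mbp in ValR minus IleR males ran from -0.22 to 0.12, positive without IleR 13, ValR 10 or ValR 12. The Opalin interaction ran from -0.37 to 0.090 for IleR, positive without male IleR 17 or female IleR 42, and from -0.0085 to 0.43 for LeuR, negative without female Control 27. With the score as a covariate it was 0.75 for IleR and 0.56 for ValR. Without the libraries farthest from the median score, r turned to -0.076 (Mog), -0.0036 (Mag), -0.090 (Mobp) and -0.022 (Cnp) in females, while Opalin was at -0.57 with an adjusted permutation p of 0.0617. In restricted males it turned to -0.24 (Mbp), -0.26 (Mog), -0.32 (Mag), -0.22 (Mobp), -0.51 (Cnp), -0.33 (Mal), -0.33 (Cldn11) and -0.58 (Ugt8a). Removing diet means, an alternative chosen after seeing the data, turned none of the 18 relations.

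No paired analysis was possible because every library has a number of its own, so no number is shared between groups. Groups of 3 or 4 males limit the precision, the smallest SE of a male log2 fold change among the 9 genes being 0.20.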
